A study of Homo sapiens with 2 samples.

Results

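The named long non-coding RNA (lncRNA) genes were taken from the deposited list of 11619 genes by their symbols. A gene was a member if its symbol was LINC or SNHG followed by a number, ended in -AS and a digit, or was one of a short list of well-known lncRNA genes (CRNDE, GAS5, NEAT1, MALAT1, DANCR, EPB41L4A-AS1, ZFAS1, MIR17HG, OIP5-AS1, PVT1 and NORAD). There were 205 members. They were sorted by name into 21 host genes of small nucleolar RNAs (snoRNAs), 57 intergenic genes, 125 antisense genes, the miRNA host gene MIR17HG and CRNDE, the gene targeted in the experiment. NORAD was not among the listed symbols and was not analysed here.

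LncRNA genes make transcripts that carry no long reading frame, and the classes differ in how they work. A snoRNA host gene carries snoRNAs in its introns. The snoRNAs are cut out of the spliced intron and guide the modification of ribosomal RNA, and the spliced host RNA often begins with a 5′ terminal oligopyrimidine (TOP) run and is often removed by nonsense-mediated decay. Intergenic lncRNAs stand apart from coding genes, and among them NEAT1 builds nuclear paraspeckles and MALAT1 collects in nuclear speckles. Antisense genes are transcribed from the opposite strand of a coding gene, or away from its promoter, and carry that gene's name. CRNDE (Colorectal Neoplasia Differentially Expressed) is an lncRNA that is raised in many tumours, and MIR17HG is the precursor of the oncogenic miR-17-92 cluster.

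The samples were NB4 cells, a human acute promyelocytic leukemia (APL) line with the PML/RARα fusion, infected with lentivirus for a CRNDE shRNA (sh-CRNDE) or for a non-targeting control shRNA (sh-Control), and both were harvested on day 3. Below, the sh-CRNDE library is also called that after knockdown and the sh-Control library the control library. There was 1 library per group, so the differences could not be checked against replicates and no test was made. The shRNA used in the sequenced cells, of the pair designed, is not stated, and NB4 is 1 cell line with the virus infection in both groups. The values are FPKM (fragments for each kilobase of transcript, relative to all mapped fragments), which allow levels to be compared between genes per length but keep no read counts, so the depth is unknown.

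Every listed gene was above 0.5 FPKM in at least 1 of the libraries. The mitochondrial rRNA gene MT-RNR2 was at 27614 FPKM after knockdown and was listed at 0 in the control library, while the median over all genes was 3.89 FPKM after knockdown and 3.95 in the control library. As a check of the cell type, 6 of 7 promyelocyte markers were listed, including MPO at 738 FPKM after knockdown and 1135 FPKM in the control library. ELANE was not among the listed symbols. Of the 6 listed markers, 5 were lower past 1.5-fold in sh-CRNDE, where 8.83% of all listed genes were. This is a short picked list in 1 library per group, and it was not tested. Of the lymphoid markers, 1 of 3 T cell and 2 of 3 B cell genes were listed, at no more than 1.16 FPKM, and 0 of 3 erythroid markers were listed.

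The shRNA target sites lie in CRNDE on chromosome 16 and are shown because they define the perturbation. The study designed a pair of CRNDE shRNAs, and each 19-base target matched chromosome 16 of GRCh38 once, on the minus strand. Both targets lie within an exon of 19 of the 30 CRNDE transcripts of GENCODE 44. The capitals mark the target, with 5 genomic bases on each side, read 5′ to 3′ on the minus strand at chr16:54919088-54919116 and chr16:54919114-54919142.
sh-CRNDE1: gttttGGGTATTCCTGTTTATAGActata
sh-CRNDE2: tcaaaGTGCTCGAGTGGTTTAAATatgtt

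The transcription starts of snoRNA host genes are shown because the RNA of such genes often begins with a TOP run. RefSeq start windows on GRCh38.p14 were found for 18 of the 21 hosts. The motif searched on the transcribed strand was a C at the first transcribed base followed by at least 3 bases that are each C or T. It was present in 6 of the 18 hosts (33.3%), in 2 of 131 intergenic and antisense members (1.53%) and in 5.45% of all 35116 promoters. Each window below holds 5 bases before the start and 25 from it, and the capitals mark the unbroken run of C and T that begins at the start. The windows are at chr5:139274096-139274125 (plus strand), chr6:85678709-85678738 (minus), chr9:136728160-136728189 (minus), chr1:28581849-28581878 (minus), chr16:2155334-2155363 (minus) and chr20:49278637-49278666 (plus), in the order printed. The DANCR window at chr4:52712389-52712418 (plus) is added as a host that lacks the run at the start used.
SNHG4: ggctgCCCTTTCCCCTCCggcctctgccgg
SNHG5: tcggtCTTTTacgtcggccttcgcgagcgt
SNHG7: tcgtcCTCTgcgtgcgccggaggctgccgt
SNHG12: agcgcCCTTTCTCCCCgccgcattcccggt
SNHG19: cctgtCTTTTCggggtcgagtccgaggggg
ZFAS1: tcgttCTTTCgcgtctgcggtgcccggagt
DANCR: gccccgcccttgcccagagtcttcccggga

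The other sequences that a member carries are the miRNAs of MIR17HG, a gene on the plus strand of chromosome 13. Its 6 hairpins give the 6 principal mature miRNAs printed here from RefSeq, with the seed (bases 2 to 8) in capitals. They hold 4 different seeds, and miR-17-5p shares its seed with miR-20a-5p as miR-19a-3p does with miR-19b-3p.
hsa-miR-17-5p: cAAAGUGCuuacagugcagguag
hsa-miR-18a-5p: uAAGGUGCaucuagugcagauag
hsa-miR-19a-3p: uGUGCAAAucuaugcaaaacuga
hsa-miR-20a-5p: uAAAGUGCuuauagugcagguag
hsa-miR-19b-3p: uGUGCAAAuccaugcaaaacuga
hsa-miR-92a-3p: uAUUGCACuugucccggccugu

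The target of the knockdown came first. CRNDE (ENSG00000245694, chr16:54845189-54929189, minus strand) was at 5.92 FPKM in the control library and 1.85 FPKM after knockdown. Its change, which here and below is log2(FPKM + 1) in sh-CRNDE less that in sh-Control, was -1.28. A gene is called higher or lower when its change was past 1.5-fold, which is 0.585 on this scale, and the added 1 makes the changes of genes with low values smaller.

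The expression levels of the members spanned from 0 to 61.7 FPKM, and the classes differed far more in level than in change. The median host was at 9.02 FPKM after knockdown and 10.3 FPKM in the control library. The median intergenic member was at 0.843 and 0.796 FPKM, and the median antisense member at 0.801 and 0.806 FPKM. Of the 21 hosts, 13 were at 5 FPKM or more in both libraries, against 11 of the 182 intergenic and antisense members. The hosts made up 39.6% of the summed FPKM of all members in sh-CRNDE and 42.3% in sh-Control, and their sum was 254.2 and 257.4 FPKM. Across the members, 76 were at 1 FPKM or more in both libraries and 91 were under 1 FPKM in both, so 129 members were under 1 FPKM in at least 1 library.

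**Figure D1:**
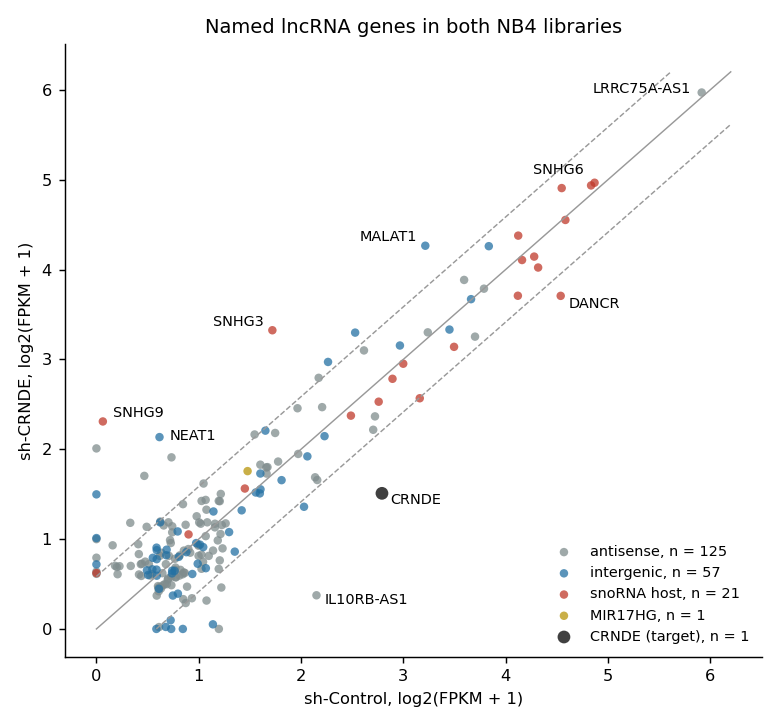
Level of each of the 205 members in sh-Control (horizontal axis) and sh-CRNDE (vertical axis), both as log2(FPKM + 1), with 1 point per gene coloured by class, the line of equal values (solid) and the 1.5-fold threshold (dashed). The snoRNA hosts are frequent toward the upper end of the diagonal, where the antisense gene LRRC75A-AS1 is the highest point, most antisense and intergenic genes lie in the lower left corner, and CRNDE lies below the lower dashed line.

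The member with the highest level was LRRC75A-AS1, a gene named as antisense that GENCODE release 44 lists as SNHG29 with 3 snoRNAs inside it. It was at 61.7 FPKM after knockdown and 59.4 FPKM in the control library. The other 9 of the 10 highest members were snoRNA hosts by name. SNHG6 was at 30.3 and 28.2 FPKM, ZFAS1 at 29.6 and 27.5 FPKM and SNHG5 at 29.0 and 22.4 FPKM, in sh-CRNDE and sh-Control in this order. GAS5, known for its rise on growth arrest, was at 22.5 and 23.0 FPKM. SNHG19 was at 19.8 and 16.4 FPKM, SNHG1 at 16.7 and 18.4 FPKM and SNHG16 at 16.2 and 16.9 FPKM. In the hosts with values given in this paragraph the change lay between -0.13 and 0.36, inside the threshold. The other hosts among the 10 highest members, DANCR and SNHG8, are described below. DANCR was lower past the threshold (change of -0.83), and SNHG8 was not past it (-0.30).

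Among the snoRNA hosts, 16 of 21 were not past 1.5-fold, 3 were higher and 2 lower in sh-CRNDE. The past share was 23.8%, where 17.2% of all listed genes were past 1.5-fold (8.38% higher and 8.83% lower). At 1 FPKM or more in both libraries, 3 of 18 hosts were past it (16.7%), 1 higher and 2 lower. Of all genes at that level, 14.1% were past it (6.67% higher and 7.45% lower). The median change of the hosts was -0.05, against -0.01 over all genes. For 10 of the hosts the change was within 0.2 of 0. The 5 hosts past the threshold differed in level.

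SNHG3, which carries SNORA73 snoRNAs in its introns, was at 2.29 FPKM in the control library and 9.02 FPKM after knockdown, a change of 1.60. It lies at chr1:28505980-28510892 on the plus strand and shares 5.92% of its exon bases with the coding gene RCC1 on the same strand. RCC1 itself was at 34.3 FPKM in the control library and 34.8 FPKM after knockdown. The intronic SNORA73B was listed as a gene of its own, at 11.9 FPKM in the control library and 8.34 FPKM after knockdown, a change of -0.46. The host was thus higher, and the value listed under SNORA73B was not past the threshold. Whether that value reflects the mature snoRNA was not tested, so it is no comparison of host and snoRNA levels.

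SNHG9, a short gene with 1 snoRNA, was at 0.0445 FPKM in the control library and 3.96 FPKM after knockdown, with a change of 2.25, the largest of all members. SNHG10 was listed at 0 in the control library and was at 0.539 FPKM after knockdown. These hosts were under 1 FPKM in a library, whereas SNHG3 was above 1 FPKM in both.

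DANCR (ENSG00000226950), described as a repressor of differentiation and the host of a single snoRNA, was at 22.2 FPKM in the control library and 12.1 FPKM after knockdown. Its change of -0.83 was the lowest among the hosts. It was among the most highly expressed hosts in sh-Control and was exceeded there by SNHG6, ZFAS1, SNHG5 and GAS5. SNHG7 was at 7.94 FPKM in the control library and 4.93 FPKM after knockdown. Its change of -0.59 was just past the threshold and was not past it after quantile normalization (-0.57) or after the median of 20 bins of like GC content was taken off (-0.21). SNHG7 also shares 30.3% of its exon bases with a gene on the opposite strand listed as FAM69B, and the library kit does not keep the strand, so reads of the pair cannot be told apart.

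**Figure D2:**
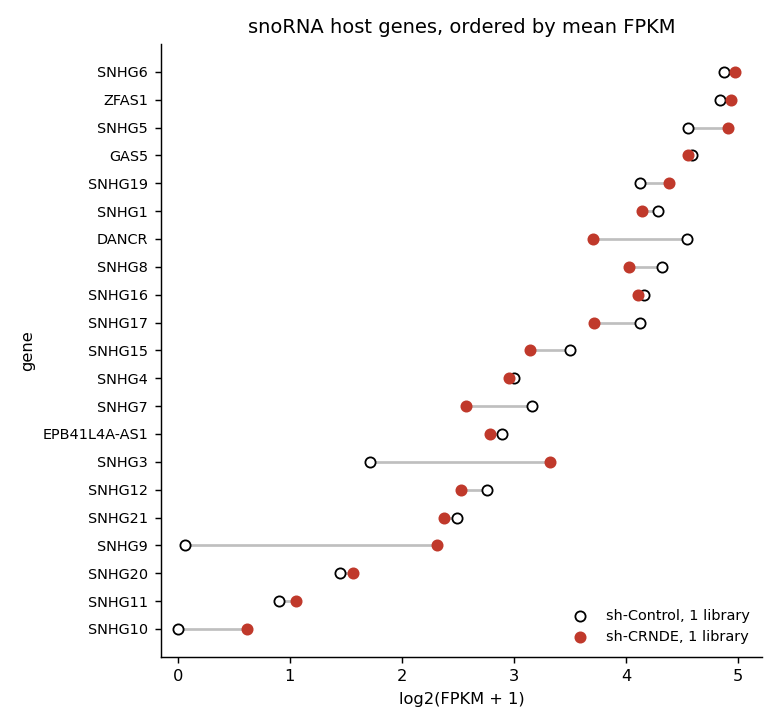
Level of the 21 snoRNA host genes as log2(FPKM + 1) on the horizontal axis, 1 open point for sh-Control and 1 filled point for sh-CRNDE per gene, ordered by mean FPKM. The points lie close together for most hosts, and SNHG3 and SNHG9 with higher and DANCR with lower sh-CRNDE values have the widest gaps.

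The remaining hosts were not past the threshold. SNHG17 was at 16.4 FPKM in the control library and 12.1 FPKM after knockdown, SNHG15 at 10.3 and 7.81 FPKM and SNHG8 at 18.9 and 15.2 FPKM. SNHG12 was at 5.77 FPKM in the control library and 4.77 FPKM after knockdown. All of these values were somewhat lower in sh-CRNDE, with changes between -0.41 and -0.23. SNHG8 shares 37.6% of its exon bases with PRSS12 on the opposite strand, so the limit given for SNHG7 holds for SNHG8 as well. SNHG4 was at 6.99 and 6.74 FPKM, EPB41L4A-AS1 at 6.43 and 5.89 FPKM and SNHG21 at 4.61 and 4.18 FPKM, in sh-Control and sh-CRNDE. SNHG20 was at 1.73 and 1.95 FPKM and SNHG11 at 0.867 and 1.07 FPKM in the same order. These hosts had changes between -0.11 and 0.15.

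The hosts with a TOP start did not move in a single direction. Of the 6 printed above, SNHG5, SNHG19 and ZFAS1 had changes above 0 and SNHG4, SNHG7 and SNHG12 below 0, and SNHG7 alone was past the threshold. Their median change was 0.03, and that of the 12 hosts without the motif at the RefSeq start used was -0.08. The number of snoRNAs did not order the hosts either. The 10 hosts with 1 annotated snoRNA had a median change of -0.01, and the 10 with 2 or more had one of -0.05. GAS5, inside which the annotation used here gave no snoRNA, was left out of this split.

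Some intronic snoRNAs were listed as genes of their own, most of them at low levels. SNORD12B, inside ZFAS1, was at 0.459 FPKM in the control library and 2.01 FPKM after knockdown. SNORA13, inside EPB41L4A-AS1, was at 0.0358 and 0.640 FPKM, and SNORD1B, inside SNHG16, at 0.958 and 0.710 FPKM. In each case the host itself was not past the threshold. Whether these values reflect the mature snoRNAs was not tested. SNORA13 and SNORD12B overlap exons of their hosts on the same strand, so reads cannot be assigned to the snoRNA or the host with certainty.

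The intergenic class held 14 of 57 members past 1.5-fold (24.6%), 7 in each direction, where 17.2% of all genes were past it (8.38% higher and 8.83% lower). Its median change was -0.02. At 1 FPKM or more in both libraries, 4 of 19 intergenic members were past the threshold, 3 higher and 1 lower, where 14.1% of all genes at that level were past it (6.67% higher and 7.45% lower).

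MALAT1 (ENSG00000251562, chr11:65497640-65508073, plus strand), a nuclear speckle RNA, was at 8.28 FPKM in the control library and 18.2 FPKM after knockdown, with a change of 1.05. NEAT1, the architectural RNA of paraspeckles at chr11:65422774-65445540 on the same strand, was at 0.533 FPKM in the control library and 3.39 FPKM after knockdown, a change of 1.52. Both neighbours were thus higher in sh-CRNDE. Their canonical transcripts have a single exon, and the fate of single-exon members is given below. Of the paraspeckle proteins, 9 symbols were listed under 10 identifiers, and 1 was past the threshold, MATR3 under the identifier ENSG00000015479 (14.3 FPKM in the control library and 26.1 FPKM after knockdown). The other MATR3 identifier was at 34.4 and 35.9 FPKM, and since these identifiers overlap, their split is uncertain. The list had 10.0% of its identifiers past the threshold, where 17.2% of all genes were, and a median change of -0.07, against -0.01 over all genes.

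LINC01420 was at 4.77 FPKM in the control library and 8.83 FPKM after knockdown, a change of 0.77. GENCODE 44 lists it as the protein-coding gene NBDY, whose small protein binds the mRNA decapping complex. Its change was 0.56, inside the threshold, after the same GC correction. LINC01296 was at 3.80 and 6.84 FPKM, a change of 0.71, and is listed there as the pseudogene DUXAP10, a member of a family of near-identical copies, so its value is uncertain. The only intergenic member lower at this level was LINC00265, at 3.08 FPKM in the control library and 1.57 FPKM after knockdown (change of -0.67, and -0.48 with the GC correction). PVT1, the lncRNA next to MYC, was at 2.03 FPKM in the control library and 1.84 FPKM after knockdown. The level of MYC was 43.8 FPKM in the control library and 26.9 FPKM after knockdown, a change of -0.68, so MYC was past the threshold and PVT1 was not.

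MIR17HG was at 1.78 FPKM in the control library and 2.38 FPKM after knockdown, a change of 0.28 that was not past the threshold. FPKM of the host says nothing of the mature miRNAs printed above, which the library does not measure. In all, 9 members held a miRNA hairpin on their strand, with 14 hairpins among them.

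**Figure D3:**
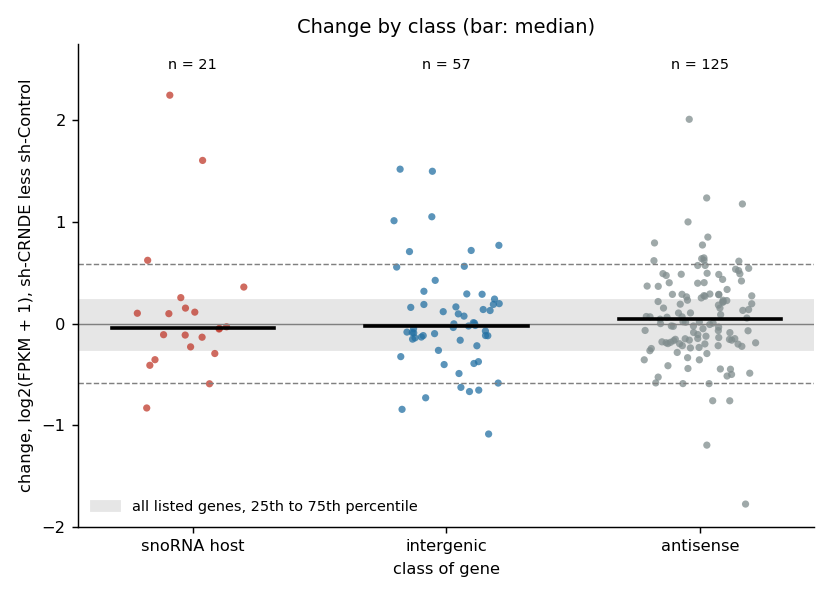
Change of each snoRNA host, intergenic and antisense member on the log2(FPKM + 1) scale, sh-CRNDE less sh-Control, with 1 point per gene, the class median as a bar, the 1.5-fold threshold dashed and the range from the 25th to the 75th percentile of all listed genes in grey. The medians of -0.05, -0.02 and 0.04 all lie near 0, and points past the threshold are present on both sides in each class.

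Of the antisense members, 18 of 125 (14.4%) were past 1.5-fold, with 12 higher and 6 lower, where 17.2% of all genes were past it (8.38% higher and 8.83% lower), and the median change was 0.04. At 1 FPKM or more in both libraries, 2 of 37 were past the threshold (5.41%), both higher, where 14.1% of all genes at that level were past it (6.67% higher and 7.45% lower). OIP5-AS1, known as a cytoplasmic sponge RNA, was at 1.92 FPKM in the control library and 3.48 FPKM after knockdown, a change of 0.62. RNASEH1-AS1 was at 3.51 and 5.94 FPKM, a change of 0.62 as well. Their coding partners were not past the threshold. OIP5 was at 5.49 FPKM in the control library and 5.92 FPKM after knockdown, and RNASEH1 at 8.71 and 8.44 FPKM.

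Most of the antisense members past the threshold were low in a library. PAXIP1-AS1, a single-exon gene, was listed at 0 in the control library and was at 3.03 FPKM after knockdown, and its partner PAXIP1 was at 6.56 and 6.87 FPKM. The lowest change of all members was that of IL10RB-AS1, named here after its values were seen, at 3.44 FPKM in the control library and 0.296 FPKM after knockdown (-1.78). It shares 79.6% of its exon bases with IFNAR2 on the opposite strand, so without strand its reads and those of IFNAR2 cannot be told apart. RPARP-AS1 (0.663 and 2.76 FPKM), also named after its values were seen, was higher in sh-CRNDE and shares 20.6% of its exon bases with an opposite gene.

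The antisense genes and their coding partners were set side by side. Of the 126 symbols with -AS, EPB41L4A-AS1 included, 107 had their partner among the listed genes. The partner was at the higher level in both libraries in 89 pairs. The median partner was at 5.95 FPKM after knockdown and 6.04 FPKM in the control library, and the median antisense gene of these pairs at 0.775 and 0.758 FPKM. The antisense gene was past the threshold in 15 pairs and the partner in 17, with 7 partners higher and 10 lower (15.9% of the partners, where 17.2% of all genes were past it). In 0 pairs were both past it, and with so few genes past it on either side, few joint calls could be seen. The changes had the same sign in 52 of the 107 pairs. Across the pairs, which all rest on the same libraries, Pearson's r of the changes was -0.05 and Spearman's rho was -0.05. In the antisense class, 80 members share exon bases with a listed gene on the opposite strand. Since the library kit does not keep the strand, reads from the shared bases cannot be assigned, which limits these levels, signs and correlations. LRRC75A-AS1, the most abundant of the antisense genes, was above its partner LRRC75A, which was at 0.777 FPKM in the control library and 0.365 FPKM after knockdown.

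**Figure D4:**
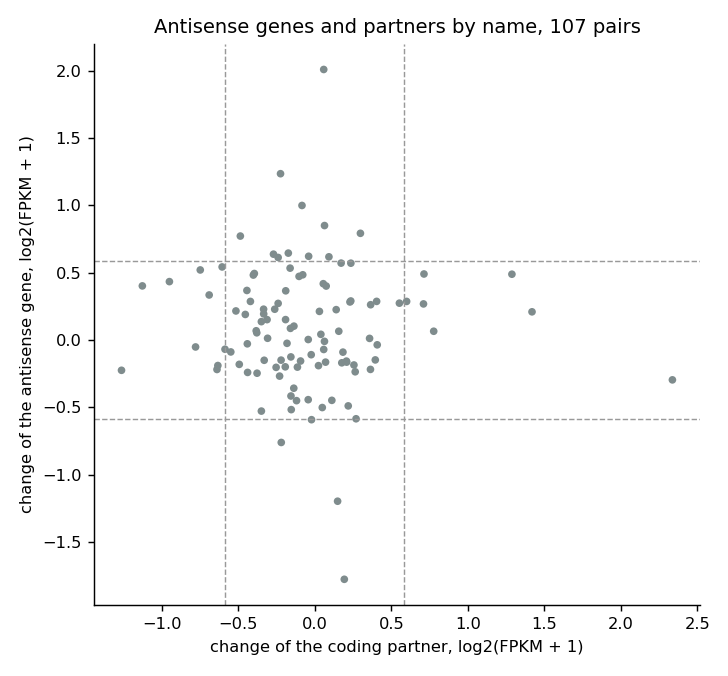
Change of each antisense gene (vertical axis) against that of the coding partner it is named after (horizontal axis), both on the log2(FPKM + 1) scale as sh-CRNDE less sh-Control, for 107 pairs with 1 point each and the 1.5-fold threshold dashed. No point lies in a corner beyond both thresholds.

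Taking all classes, 38 of the 205 members (18.5%) were past 1.5-fold, 22 higher and 16 lower in sh-CRNDE, where 17.2% of all genes were past it. At 2-fold, 13 members were past the threshold (6.34%), 9 higher and 4 lower, where 6.66% of all genes were (3.43% higher and 3.23% lower). Of the 76 members at 1 FPKM or more in both libraries, 10 were past it (13.2%), 6 higher and 4 lower, where 14.1% of all genes at that level were. These shares lie near the background. The 10 were SNHG3, MALAT1, LINC01420, LINC01296, RNASEH1-AS1 and OIP5-AS1 on the higher side and CRNDE, DANCR, LINC00265 and SNHG7 on the lower side. Among the 24 members at 5 FPKM or more in both libraries, MALAT1 was higher and DANCR lower (8.33%). The other members at that level were not past the threshold. The share of all genes past it at that level was not computed.

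Many members had low values, past the threshold or not. Neither library reached 2 FPKM in 22 of the 38 members past it (57.9%) and in 143 of all 205 members (69.8%). A member listed at 0 in a library had to be past 1.5-fold, since every listed gene was above 0.5 FPKM in the other. This held for 13 members, of which 9 were at 0 in the control library and 4 after knockdown, and 10 of the 13 had a single exon. Of the members, 6.34% were at 0 in a library, against 2.76% of all genes. Among the 20 single-exon members, 13 were past the threshold (65.0%), against 25 of the 183 with more exons (13.7%). Of these 13 single-exon members, 10 were listed at 0 in a library and so had to be past it. The share past it among all single-exon genes of the list was not computed, so 65.0% cannot be read as particular to the members. Without the single-exon members, 25 members were past it, 13 higher and 12 lower. The part of a single-exon structure in these values was not tested.

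**Figure D5:**
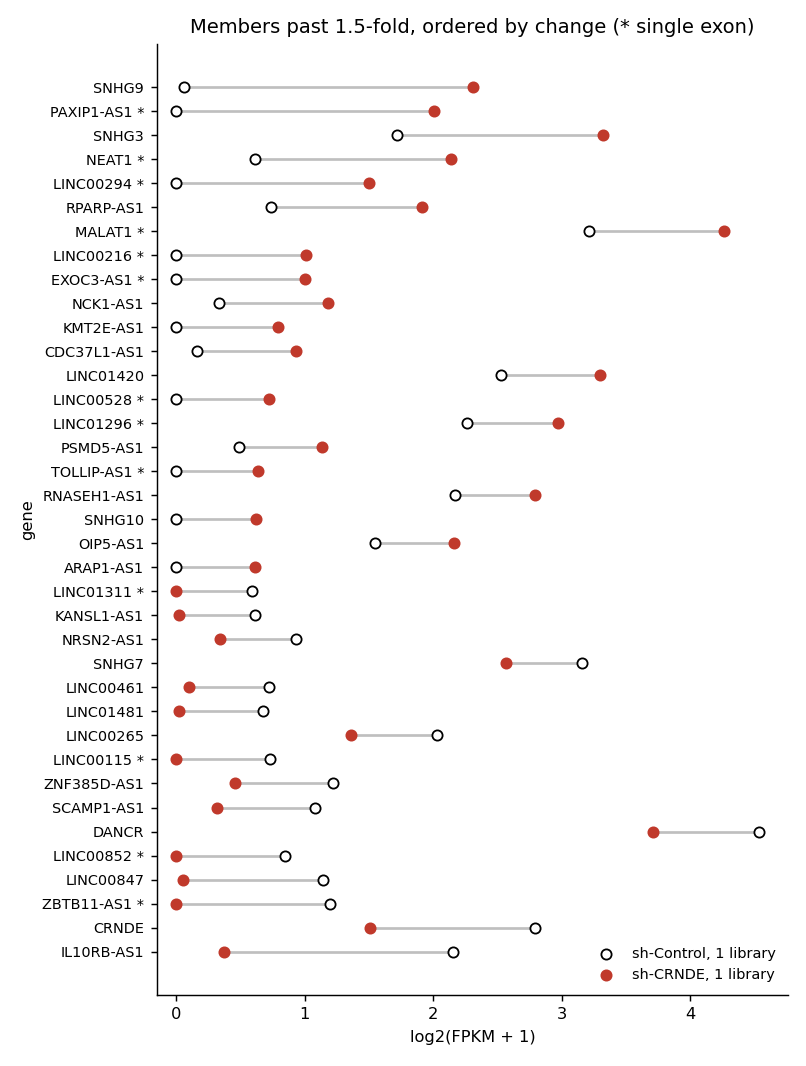
Level of 37 of the 38 members past 1.5-fold as log2(FPKM + 1) on the horizontal axis, 1 open point for sh-Control and 1 filled point for sh-CRNDE per gene, ordered by change with 21 higher members above the 16 lower ones, and an asterisk for single-exon genes. Most open or filled points on the low side of a pair lie under 1, which is 1 FPKM, and 13 of them lie at 0.

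The names in the table do not all match the current annotation. Of the members, 203 were matched by identifier to GENCODE 44, which lists 186 as lncRNA, 7 as protein-coding and 10 as pseudogenes. The symbol had changed for 44 members, and 22 of the new symbols end in -DT, for a transcript divergent from a coding gene's promoter. The protein-coding ones included LINC00998 (SMIM30, at 13.3 FPKM in the control library and 18.2 FPKM after knockdown) and LINC00493 (SMIM26, at 11.7 FPKM in both), which were named after their values were seen. Both encode small membrane proteins, and neither was past the threshold. With the 186 lncRNA genes alone, 35 members were past 1.5-fold (18.8%), 19 higher and 16 lower. Of all genes, 17.2% were past it (8.38% higher and 8.83% lower), so the share lies near the background.

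The proteins that act on these RNAs were followed through short lists. The list of snoRNA ribonucleoproteins and their assembly factors had 13 symbols for 12 genes, since NHP2L1 is an older symbol of SNU13, and each of the 12 genes was listed. NOP10, a core protein of the H/ACA particles, was alone past the threshold, at 29.0 FPKM in the control library and 114 FPKM after knockdown (change of 1.94). This is 8.33% of the list, where 17.2% of all genes were past the threshold, and the median of the list was 0.14. Of the 14 nonsense-mediated decay factors, all listed, 1 was past it (7.14%, also under the share of all genes). It was UPF3B, at 9.84 FPKM in the control library and 24.0 FPKM after knockdown, and the median of these factors was -0.05. UPF1, the central helicase of this pathway, was at 20.1 FPKM in the control library and 13.3 FPKM after knockdown, a change of -0.56 inside the threshold.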

How the data were processed

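RNA of the NB4 libraries was prepared with the TruSeq RNA v2 kit, which does not keep the strand, and sequenced on an Illumina MiSeq. The deposited values are FPKM per gene, made by the authors with a published protocol that joins HISAT, StringTie and Ballgown. The submitters' processing notes name fastp 0.20.0, HISAT2 2.0.4 and StringTie 1.2.3 and GRCh38, and the annotation release is not given in the sources used here. No per-sample column was left unused.

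From the FPKM values, log2(FPKM + 1) in sh-CRNDE less that in sh-Control was computed for all 11619 genes with no further scaling or filter, and a change past 1.5-fold was counted. With 1 library per group no test was run, and since FPKM keep no counts, no counting error could be given. Libraries were grouped by their labels. Coordinates, exon numbers, GC content and snoRNA genes came from GENCODE 44 by Ensembl identifier (11508 of 11619 matched), and start windows and miRNAs from RefSeq (GRCh38.p14). The members, classes and gene lists were chosen with earlier results of these data known. The snoRNA hosts were the SNHG genes and GAS5, DANCR, ZFAS1 and EPB41L4A-AS1.

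Named genes were CRNDE, every snoRNA host, every gene listed by symbol, the 10 members with the highest mean, members past 1.5-fold with at least 1 FPKM in both libraries, members listed at 0 in a library if at 2 FPKM or more in the other, coding partners of named antisense genes, and members of the protein lists past the threshold. Others are marked as named after their values were seen, as are RCC1, MYC, UPF1 and the snoRNAs, which are no members. The values of 1 member past the threshold are counted but not reported here. The alternatives were other pseudocounts, scalings, filters, class definitions and thresholds. The computation was checked on simulated data. Python 3.11.15, numpy 2.4.6, pandas 2.3.3 and matplotlib 3.10.9 were used.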

Additional observations from a re-analysis of the deposited data

How the results depend on the processing

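The medians of the snoRNA host, intergenic and antisense members kept their sign under every alternative run, and the change of CRNDE stayed between -1.68 and -1.27. The difference of -0.05 between the host median and that of the intergenic and antisense members was -0.16 with genes of a mean of at least 1 FPKM. The count of members past 1.5-fold was 38 of 205, with 22 higher and 16 lower. It was 79 of 205 (46 and 33) with a pseudocount of 0.1 and 89 of 205 (51 and 38) with 0.01. As TPM without mitochondrial, ribosomal and small RNA genes it was 75 of 205 (45 and 30). With a mean of at least 1 FPKM it was 16 of 90 (11 and 5). It was 25 of 192 (13 higher) without genes listed at 0 and 25 of 183 (13 higher) without single-exon members. At 2-fold it was 13 of 205 (9 and 4), where 6.66% of all genes were past it. For the other alternative settings the share of all genes was not computed, so these counts cannot be read as particular to the members. Smaller pseudocounts widen changes of low genes by construction, and the filters leave fewer genes. Rescaling to TPM acts like a smaller pseudocount, because it raised the values while the added 1 stayed the same. The FPKM of all listed genes summed to 170373 after knockdown and 141217 for the control library. CRNDE changed by -1.62 as TPM and by -1.63 with a pseudocount of 0.1. Removal of mitochondrial, ribosomal and small RNA genes was not run without this rescaling, so the count of 75 cannot be assigned to removal. Of the 37 members past the threshold other than CRNDE, 31 kept their direction and side of 1.5-fold under every pseudocount, scaling and the GC subtraction. KANSL1-AS1, LINC01311, LINC00265, LINC01420, PSMD5-AS1 and SNHG7 did not. A smaller pseudocount widens every change by construction, so it could not take a member back inside the threshold. TPM, which acts like one, left each of these members past it. The 31 thus rest on centring on the median change, quantile normalization and the GC subtraction. The GC subtraction and the omission of single-exon members were chosen after seeing the data. The median change in 20 bins of GC content ranged from 0.21 to -0.39. Leaving out a replicate was not possible with 1 library per group. No paired analysis was possible because each group has 1 library.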

Other observations

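Of the lncRNAs that the study selected for APL in patient data, 6 were members (CRNDE, CARD8-AS1, LINC00998, LINC00623, LINC00869 and SPG20-AS1). CRNDE, which the shRNA was made to lower, was the only one past 1.5-fold. The others were not past it, where 17.2% of all genes were. So few genes cannot be set against that share. CARD8-AS1, an antisense gene of the inflammasome regulator CARD8, was at 11.1 FPKM in the control library and 13.8 FPKM after knockdown, and CARD8 was at 4.91 and 5.95 FPKM. The list was chosen in other samples, and these genes were named after their values were seen.

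The coding genes next to CRNDE on chromosome 16 are the homeobox genes IRX5 and IRX3, and they were looked up after the members had been examined. IRX3 was at 25.03 FPKM in the control library and 11.4 FPKM after knockdown, a change of -1.07. IRX5 was at 1.79 and 1.19 FPKM, a change of -0.35 inside the threshold. HOTAIRM1 and MIR155HG, lncRNA genes of blood cells whose names fall outside the rule, were at 0.509 and 1.02 FPKM in sh-Control and at 0.167 and 1.65 FPKM in sh-CRNDE, and neither was past the threshold.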
